A study of Mus musculus with 6 samples.

Results

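The antibody constant region genes, the J chain gene and Pigr were examined in RNA of submandibular glands (SMGs) of mice. The set holds 10 genes of the 43280 rows in the unfiltered count table. They are the heavy chain genes Ighm, Ighd, Igha, Ighg1, Ighg2b, Ighg2c and Ighg3, the kappa light chain gene Igkc, the J chain gene Jchain, which the table lists under its older symbol Igj, and Pigr. All 10 had a row, and all 10 passed the minimum of 10 counts summed over the libraries. Ighg3 passed through its WT libraries, which held 46 of its 47 counts. The genes were chosen with the comparison of the groups already known. Their differences between groups are therefore given as a description. Where calls of a fit across all rows are counted for them, the calls describe the rows and are not evidence, and no adjusted p-value is given for them.

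An antibody is built from heavy chains and light chains, and the constant region of its heavy chain sets its isotype. A naive B cell carries IgM and IgD, and class switching replaces the IgM constant region with that of an IgG subclass, IgE or IgA. Plasma cells in the stroma of salivary glands mostly make IgA, which is joined into polymers by the J chain. The polymeric immunoglobulin receptor, encoded by Pigr in epithelial cells, binds J chain-containing IgA or IgM at the basolateral side, carries it across the cell and releases it into saliva. Antibody RNA therefore comes from cells of the B lineage and Pigr RNA from the epithelium of the same gland.

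The design set 3 SMGs labelled WT against 3 labelled DKO, numbered 1, 4 and 5 in each group, all from female mice. DKO stands for loss of both Hs3st3a1 and Hs3st3b1, genes of enzymes that place 3-O-sulfate groups on heparan sulfate. Per the study, the mice were adults on a C57BL/6 background, WT mice were littermates, and the DKO allele joins a LacZ cassette in Hs3st3b1 with a short frameshift deletion in exon 1 of Hs3st3a1 made with a zinc finger nuclease. The alleles are present in every cell, so immune cells and epithelium both carry them, and an exact age is not given in the sources used here. The labels name no treatment.

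Libraries held 23674258 to 29611975 counts. The 10 genes took from 0.0193% (DKO 5) to 0.114% (WT 1) of all counts of a library. Counts of the targeted genes did not separate the groups. Hs3st3b1 had 173, 203 and 261 counts in WT 1, 4 and 5 and 255, 120 and 189 in DKO 1, 4 and 5, a difference of -0.04 ± 0.24 (log2 scale, SE) with an adjusted p of 0.976 by DESeq2. For Hs3st3a1 the WT libraries held 15, 11 and 15 and the DKO libraries 11, 8 and 13 counts, a difference of -0.22 ± 0.61 (adjusted p of 0.947). A short deletion or an inserted cassette need not remove gene counts, so these rows do not check the labels, and every direction given here rests on the names WT and DKO. The salivary epithelium list matched the labelled tissue, with 12 of 12 markers present and a summed level of 76466 to 85227 normalized counts in WT and 79930 to 86810 in DKO. Libraries of a group were not alike in all tissue genes. Muc19, a mucin of the neighbouring sublingual gland named here after its values were seen, was at 55665 normalized counts in WT 5 and 3706 in DKO 1, and between 28.2 and 119 in the other 4 libraries. Its part in the results was not tested.

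Pairs of IgG subclass genes resemble each other, so it matters whether a read can be assigned to one of them. The exon that codes for the hinge is printed because its length and cysteine triplets tell the 4 subclasses apart, 5′ to 3′ on the coding strand in GRCm38 (GENCODE M21). Capitals mark the TGT and TGC triplets in the reading frame, which code for the cysteines of the hinge.
Ighg1 hinge exon, chr12:113329844-113329882, minus strand: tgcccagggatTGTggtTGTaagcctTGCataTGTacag
Ighg2b hinge exon, chr12:113307261-113307326, minus strand: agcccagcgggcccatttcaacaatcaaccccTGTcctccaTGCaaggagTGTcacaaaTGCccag
Ighg2c hinge exon, chr12:113288263-113288325, minus strand: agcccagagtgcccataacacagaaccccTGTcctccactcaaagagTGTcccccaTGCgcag
Ighg3 hinge exon, chr12:113360529-113360576, minus strand: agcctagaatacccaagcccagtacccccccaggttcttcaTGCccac
The Ighg2b and Ighg2c hinge exons were 66 and 63 bases long with 4 and 3 such triplets. The Ighg1 exon was 39 bases long with 4, and the Ighg3 exon was 48 bases long with 1. Over the shortest annotated transcript of each heavy chain gene, Ighg2b and Ighg2c had 56 windows of 50 bases in common, which is 5.26% of the Ighg2b windows and 5.27% of the Ighg2c windows. The other 5 heavy chain genes shared no window of 50 bases with any member. Reads in the shared stretch of Ighg2b and Ighg2c may have been split or dropped by the authors' counting, so the boundary between these rows is less certain than that between the others.

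The 7 heavy chain genes lie on the minus strand of chromosome 12 in GRCm38 within 168 kb. In the direction of transcription they follow in the order Ighm (chr12:113418558-113422730), Ighd (chr12:113406604-113416324), Ighg3 (chr12:113356224-113361232), Ighg1 (chr12:113325240-113330523), Ighg2b (chr12:113302965-113307933), Ighg2c (chr12:113285325-113288932) and Igha (chr12:113254830-113260236). Igkc lies apart at chr6:70726435-70726966 on the plus strand, Jchain at chr5:88519809-88527891 on the minus strand and Pigr at chr1:130826684-130852249 on the plus strand. Igha is the last gene of the heavy chain row.

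IgM and the IgG subclasses lay far lower in the libraries labelled DKO, while IgA and Pigr did not separate the groups. Levels are DESeq2 normalized counts, that is counts divided by a size factor per library, and fold changes are log2 values of DKO over WT with their standard error (SE). Because glands were measured whole, fewer cells of a type and less RNA per cell cannot be told apart. In the DESeq2 fit across all 18606 tested rows, 5 of the 10 genes had an adjusted p-value under 0.05, all lower in DKO, beside 1.88% of all rows called lower. None was called higher, beside 1.02% of all rows. All 10 fold changes were negative, with a median of -2.94 beside 0.00 over all rows. In 3 of the 10, Ighm, Ighg1 and Ighg2b, every DKO library lay below every WT library, beside 10.5% of all rows. In 0 of the 10 every DKO library lay above every WT library, beside 9.85% of all rows, so 3 of 10 did not overlap in either direction, beside 20.3%. These counts only restate how the genes were chosen. They depended on the tool, since edgeR and limma-voom called 0 of the 10, with 6 and 3 of them at an unadjusted p under 0.05.

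**Figure D1:**
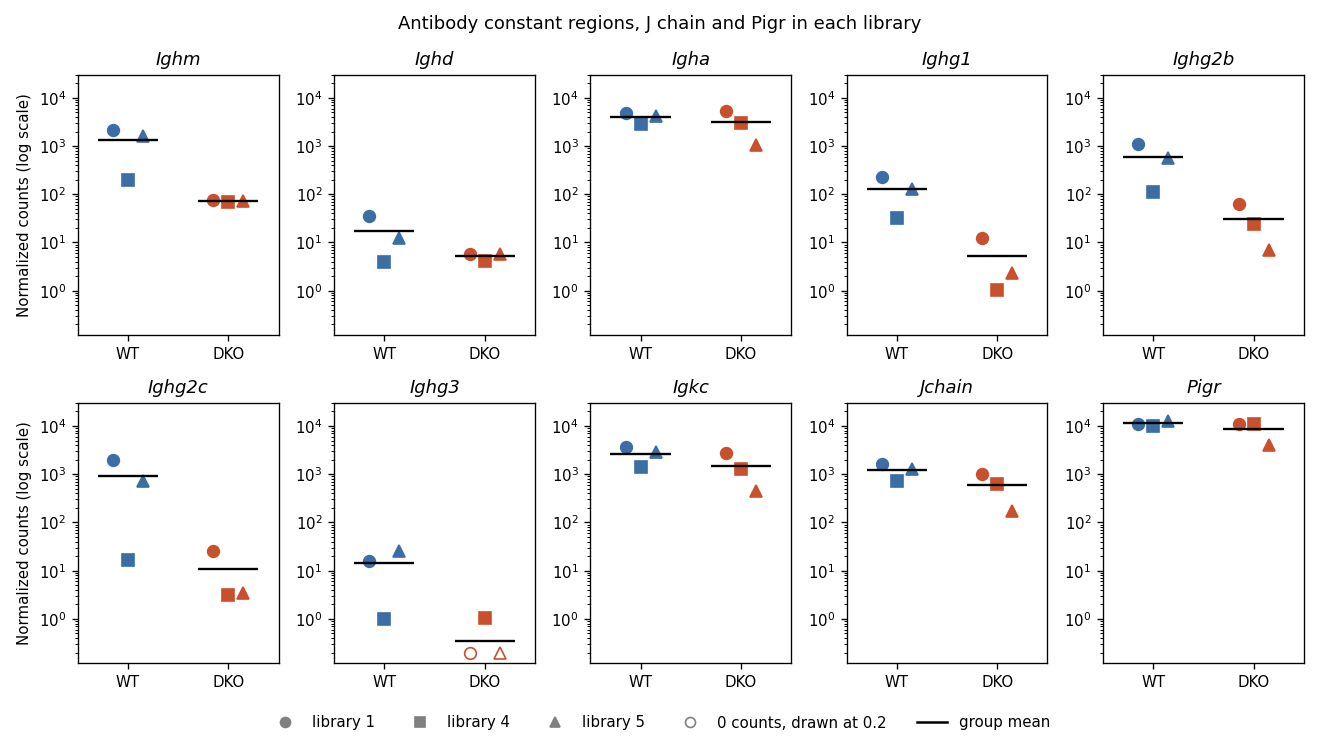
Normalized counts of the 10 genes on a logarithmic axis in 3 WT and 3 DKO libraries, with marker shape for the library number and a line for the group mean. Ighm sits at 69.0 to 75.9 in all DKO libraries, WT 4 lies below the other WT libraries for IgM and IgG, and DKO 5 lies below the other DKO libraries for Igha, Igkc, Jchain and Pigr.

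Ighm, the constant region of IgM, was at 2143, 194 and 1603 normalized counts in WT 1, 4 and 5. In DKO 1, 4 and 5 it was at 75.9, 69.0 and 72.6. The DKO libraries were almost equal, with a mean of 72.5 ± 3.46 (SD, n = 3), while the WT libraries spread 11.1-fold around 1313 ± 1007 (SD, n = 3). The groups did not overlap, but WT 4 was nearer to the DKO libraries than to the other WT libraries, at 10.3% of their mean. The fold change was -4.18 (SE 0.88). Ighm was called in 14 of 16 alternative fits, all except edgeR and limma-voom, and it was the only one of the 10 genes still called without WT 1, without WT 5, without DKO 4 or without DKO 5.

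Ighd, the constant region of IgD, which B cells splice from the same primary transcript as Ighm, was a row of few counts. It was at 34.6, 3.91 and 12.5 normalized counts in WT and 5.69, 4.18 and 5.76 in DKO. WT 4 was the lowest of all 6 libraries, so the groups overlapped. Its fold change was -1.71 (SE 0.84), and it was not called. Per kb of annotated exon, Ighm stood to Ighd at 62.3, 49.9 and 129 in WT and at 13.4, 16.6 and 12.7 in DKO. These ratios did not overlap, and the difference between the groups was thus larger for Ighm than for Ighd. The DKO ratios rest on 4 to 6 Ighd counts per library.

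The IgG subclass rows lay lower in DKO as well. Ighg2c codes for the subclass that C57BL/6 mice carry in place of IgG2a. It was at 1959, 16.6 and 724 normalized counts in WT 1, 4 and 5 and at 25.6, 3.14 and 3.46 in DKO 1, 4 and 5. WT 4 lay below DKO 1, so the groups overlapped, and the WT libraries alone spanned 118-fold. The fold change was -6.38 (SE 1.61), and the gene was called. Without WT 4, which stood at 1.24% of the mean of the other WT libraries, the fold change was -6.95.

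Ighg2b, another subclass, was at 1103, 111 and 573 in WT and 61.7, 24.0 and 6.92 in DKO. Every DKO library lay below every WT library, with a fold change of -4.27 (SE 1.12). Ighg1, the subclass of many responses to protein antigens, was at 227, 32.3 and 130 in WT and 12.3, 1.05 and 2.31 in DKO. Its groups did not overlap either, and the fold change was -4.62 (SE 1.17). In both rows WT 4 was the lowest WT library and DKO 1 the highest DKO library, and both were called.

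Ighg3, an IgG of responses to carbohydrate antigens, had 16, 1 and 29 raw counts in WT and 0, 1 and 0 in DKO. WT 4 and DKO 4 held the same single count, so the groups overlapped. Scaled by size factors, the summed WT counts were 42.0 times the DKO count, with an exact 95% interval of 7.18 to 1696 that covers counting error only. It was called by DESeq2, but in only 5 of 15 alternative fits.

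The calls of the 3 larger IgG rows rest on the libraries used. Ighg1, Ighg2b and Ighg2c were each called in 10 of 16 alternative fits. They were lost under edgeR and limma-voom and in each of the 4 fits without WT 1, WT 5, DKO 4 or DKO 5. Without both WT 4 and DKO 5, an alternative chosen after seeing the data, 5 of the 10 genes were called, with Jchain in place of Ighg3.

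Igha, the constant region of IgA, did not follow IgM and IgG. It was at 4739, 2903 and 4206 normalized counts in WT 1, 4 and 5 and at 5452, 3012 and 1046 in DKO 1, 4 and 5. The highest and the lowest library were both DKO libraries, and DKO 1 and DKO 4 averaged 107% of the WT mean. Group means were 3949 ± 944 and 3170 ± 2207 (SD, n = 3), and the fold change of -0.32 (SE 0.66) was within its error. It rested on DKO 5, which stood at 24.7% of the mean of the other DKO libraries, and without that library the fold change was 0.10. WT 4, low in IgM and IgG, had 64.9% of the Igha level of the other WT libraries.

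Igkc, the constant region of the kappa chain that pairs with any heavy chain isotype, was at 3697, 1407 and 2878 in WT and at 2727, 1291 and 457 in DKO. The groups overlapped, with DKO 1 above WT 4. The fold change was -0.83 (SE 0.77), and it was not called. Per kb, Igkc was between 1.41 and 2.40 times the sum of the 7 heavy chain rows in all 6 libraries, although that sum spanned 11.2-fold. The kappa row therefore kept within a narrow ratio of total heavy chain RNA in both groups.

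Jchain was at 1616, 738 and 1258 in WT and at 1009, 625 and 173 in DKO. DKO 1 lay above WT 4, so these levels overlapped too, and the fold change was -0.999 (SE 0.73). Per kb, Jchain stood to Igha at 0.361, 0.269 and 0.317 in WT and at 0.196, 0.220 and 0.175 in DKO, with no overlap. IgM pentamers also take up the J chain, and against the sum of Igha and Ighm the ratios were 0.220, 0.246 and 0.206 in WT and 0.192, 0.213 and 0.160 in DKO. Those overlapped, since DKO 4 lay above WT 5. This overlap is that of exon union lengths, 2668 bases for Igha, 1886 for Ighm and 2517 for Jchain. An annotated transcript of each has 1100, 1493 and 1393 bases. The sum weighs Igha and Ighm by the lengths used. By these transcript lengths every DKO ratio to the sum lies below every WT ratio, so the overlap holds for exon unions only.

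The make-up of the heavy chain RNA was compared as a share of the 7 rows per kb of annotated exon, which does not depend on how much antibody RNA a library held. The percentages do depend on the lengths used. The exon union is 2668 bases for Igha and 1326 for Ighg2c, while their shortest transcripts have 1100 and 1111. IgA was 36.1%, 86.4% and 48.5% of it in WT 1, 4 and 5 and 95.8%, 95.7% and 89.2% in DKO 1, 4 and 5. All DKO libraries lay above all WT libraries, with means of 57.0% ± 26.2 and 93.5% ± 3.79 (SD, n = 3). WT 4 was close to DKO 5, the lowest DKO library. No test is given, because the genes were chosen on these levels and 3 libraries against 3 cannot give a two-sided permutation p below 0.1.

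The 4 IgG subclasses together were 40.4%, 5.29% and 25.2% of the heavy chain RNA in WT and 2.21%, 1.03% and 1.38% in DKO. By exon union length, Ighg2c made up most of that in WT 1 and WT 5, at 30.1% and 16.8% of all heavy chain RNA. In WT 4 it was 0.996%, and Ighg2b was higher at 3.28%. The union is 1326 bases for Ighg2c but 2592, 2678 and 2512 for Ighg1, Ighg2b and Ighg3. Their shortest transcripts are of like length, 1076 to 1114 bases. The Ighg2c share beside the other subclasses is therefore larger by exon union than by transcript length. IgM was 23.1%, 8.15% and 26.1% in WT and 1.89%, 3.10% and 8.76% in DKO. Here the groups overlapped, as DKO 5 lay above WT 4. In DKO 5 the Igha level was low while the Ighm level was that of the other DKO libraries.

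**Figure D2:**
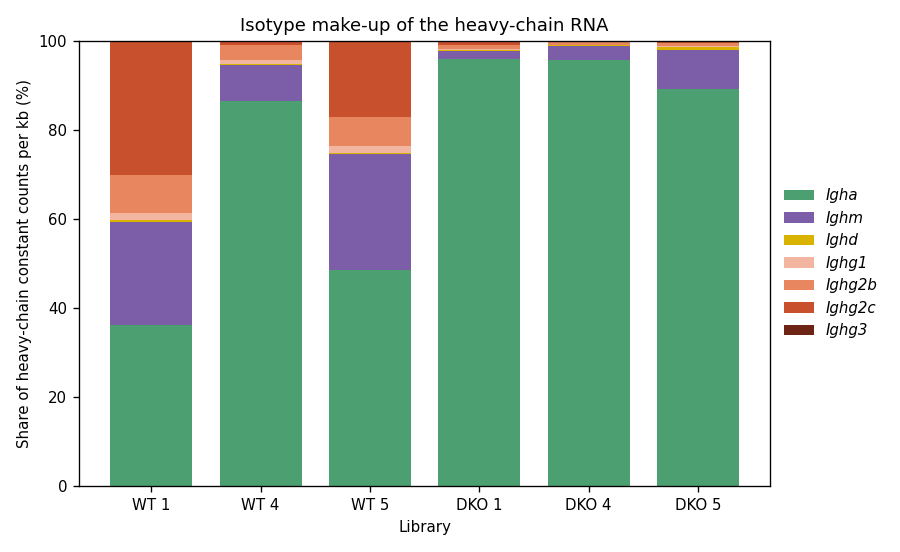
Stacked bars give the share of each heavy chain constant gene in the heavy chain counts per kb of annotated exon, in percent, for each library. Igha fills 89.2% to 95.8% of the DKO bars and 36.1%, 86.4% and 48.5% of the WT bars.

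In order of mean level per kb in WT, Igkc stood first at 5001 normalized counts per kb, followed by Pigr at 2821, Igha at 1480, Ighm at 696, Ighg2c at 679, Jchain at 478, Ighg2b at 222, Ighg1 at 49.995, Ighd at 8.96 and Ighg3 at 5.68. Of the 9 pairs of neighbours, 6 kept this order in each WT library. Ighm and Ighg2c, Ighg2c and Jchain, and Ighd and Ighg3 did not. Only Pigr and Igha had ranges over the 3 libraries that did not overlap. Positions and ranges depend on the length used, here an exon union of 2668 bases for Igha and 4025 for Pigr. An annotated transcript of each has 1100 and 3849 bases. By these transcript lengths Igha lies above Pigr in every WT library and their ranges overlap. The places of Pigr and Igha, and their separate ranges, therefore hold for exon unions only. In DKO the order was Igkc at 2803, Pigr at 2164, Igha at 1188, Jchain at 239, Ighm at 38.4, Ighg2b at 11.5, Ighg2c at 8.10, Ighd at 2.74, Ighg1 at 2.02 and Ighg3 at 0.139. Here the ranges of Jchain and Ighm and those of Ighm and Ighg2b were separate, and the ranges of all other neighbours overlapped. The order held in each DKO library for 4 of 9 pairs, those from Pigr down to Ighg2b. Jchain stood above Ighm in every DKO library, whereas Ighm was the higher of the pair in WT 1 and WT 5.

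Pigr, the epithelial receptor, did not follow IgM and IgG across the groups. It was at 11134, 9971 and 12959 normalized counts in WT 1, 4 and 5 and at 11209, 10926 and 3998 in DKO 1, 4 and 5. Of the 6 libraries 5 lay within 1.30-fold of each other, and DKO 5 lay below them all. DKO 1 and DKO 4 averaged 97.5% of the WT mean. Group means were 11355 ± 1506 and 8711 ± 4084 (SD, n = 3), and the fold change was -0.38 (SE 0.46). It was not called in the main fit or in any of 16 alternatives, and without DKO 5 it was -0.04. WT 4, at 10.3% of the other WT libraries for Ighm, stood at 82.8% of them for Pigr.

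Within the DKO group, Pigr was low in the library in which IgA was low. DKO 5 was at 36.1% of the mean of DKO 1 and DKO 4 for Pigr, 24.7% for Igha, 22.7% for Igkc and 21.2% for Jchain, but at 100.3% for Ighm. Of 11489 rows with a mean of at least 50 normalized counts, 55 (0.479%) were below 40% in DKO 5 by this measure. They included 7 of the 8 members with that mean, all but Ighm. Ighg1, Ighg2b and Ighg2c reached that mean through the WT libraries, with DKO means of 5.23, 30.9 and 10.7. Ighg1 and Ighg2c held 2 and 3 counts in DKO 5 and were below 40% in DKO 4 as well. WT 4 had more rows below 40% against the other WT libraries, 98 (0.853%), with Ighm, Ighg1, Ighg2b and Ighg2c among them. Each of the other 4 libraries had 19 to 37. With a mean of at least 1000, DKO 5 had 12 such rows. Beside Igha, Igkc and Pigr they included the salivary secretory genes Smgc, Muc19, Bpifa2 and Dcpp1, named after their values were seen. All 4 were below the limit in WT 4 too, and Muc19, Bpifa2 and Dcpp1 also in WT 1 and DKO 4. Per kb, Pigr stood to Igha at 1.56, 2.28 and 2.04 in WT and at 1.36, 2.40 and 2.53 in DKO, so the ratios overlapped. The summed salivary epithelium markers of DKO 5 were at 79930, within the range of the WT libraries. DKO 5 was 1 library, and whether the gland or its handling set it apart was not tested.

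The start of Pigr is shown because its promoter is a known meeting point of constitutive and cytokine-driven control. The window runs from 250 bases before to 50 bases after the start (RefSeq, GRCm38.p6, chr1:130826434-130826733, plus strand), with the matches to CACGTG and TTCNNNGAA in capitals.
Pigr: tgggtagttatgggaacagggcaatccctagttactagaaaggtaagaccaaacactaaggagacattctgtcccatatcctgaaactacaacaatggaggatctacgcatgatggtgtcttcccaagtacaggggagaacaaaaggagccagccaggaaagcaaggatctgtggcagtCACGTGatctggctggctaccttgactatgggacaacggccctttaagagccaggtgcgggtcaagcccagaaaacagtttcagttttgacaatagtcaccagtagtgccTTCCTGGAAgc
CACGTG, the E-box letters that USF factors bind, began 71 bases before the start, and 7.15% of 32851 promoter windows of the same length held it on either strand. TTCNNNGAA, the core of STAT sites, began 39 bases after the start, and 8.3% of windows held it. Another motif, the repeat bound by interferon regulatory factors (GAAA, any 2 bases, GAAA), was searched and had no match in this window, and 3.44% of windows held it. Both strands were searched, and the matches did not overlap. A match is a description of the letters only. Of the 10 genes, Pigr and Jchain had an entry in this promoter table, and the Jchain window (chr5:88527848-88528147, minus strand) held none of the 3 motifs.

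The genes around antibody production and transport were described in 13 lists of 136 genes, 120 of them tested. The lists were chosen with earlier results of these data known, so their counts are not independent evidence. Of the 120, 18 were called lower and 7 higher in DKO (20.8%), beside 2.9% of all rows, and their median fold change was -0.41 beside 0.00. edgeR and limma-voom called 0 of the 120 in either direction, with 61 and 51 of them at an unadjusted p under 0.05. The adjusted p-values below are those of DESeq2.

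Among 9 tested plasma cell genes, 0 were called lower, with 4 at an unadjusted p under 0.05, and 1 was called higher. Derl3, a factor of protein disposal in the endoplasmic reticulum used by many secretory cells, rose from 2110 to 2495 normalized counts in WT to 2742 to 3337 in DKO (log2 fold change 0.48, adjusted p = 0.00414). The median of the list was -1.06. Of 6 plasma cell genes shared with secretory epithelium, Fkbp11, a chaperone of secretory cells, rose (log2 fold change 0.71, adjusted p = 0.00532) and 0 fell. Iglc2, the only lambda constant region tested, was at 68.3, 20.5 and 26.0 in WT and 29.4, 12.5 and 5.76 in DKO and was not called (log2 fold change -1.25, adjusted p = 0.344).

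Of 11 tested B cell genes, 3 fell and 0 rose, with a median of -2.58. Cd22, an inhibitory co-receptor, fell by 3.41 on the log2 scale (adjusted p = 0.00871). Ms4a1, which encodes CD20, fell by 4.97 (adjusted p = 0.0295) and the transcription factor gene Spib fell by 3.27 (adjusted p = 0.0434). Ms4a1 had 61, 1 and 6 raw counts in WT 1, 4 and 5 and 0, 1 and 1 in DKO 1, 4 and 5, so its groups overlapped. None of these genes was called without WT 1. Cd22 was then at -2.21 (adjusted p = 0.519) and Spib at -2.18, and Ms4a1 missed the count minimum. The summed level of the 12 listed genes was 51.8 to 403 normalized counts in WT and 27.2 to 32.3 in DKO, with WT 4 the lowest WT library as it was for Ighm. Whether the B cells account for the Ighm and IgG levels was not tested.

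Of 13 tested genes of IgA switching, survival and homing, 2 fell. Itga4, the integrin chain with which lymphocytes bind vessels, fell by 1.66 (adjusted p = 5.68e-04) and its ligand gene Vcam1 fell by 1.20 (adjusted p = 0.0119). Ccl28, the epithelial chemokine that draws IgA plasma cells into glands, was at 4256, 3551 and 4073 in WT and 4043, 7371 and 3356 in DKO and was not called. DKO 5 was the lowest of the 6 libraries for both Ccl28 and Igha, whereas the highest library was DKO 4 for Ccl28 and DKO 1 for Igha.

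Around Pigr itself, 0 of 10 genes of its transport route and 0 of 18 regulators of its transcription were called, with 1 and 6 at an unadjusted p under 0.05. Rab25, a GTPase of apical recycling, had a log2 fold change of 0.52 (adjusted p = 0.0621), and the motor gene Myo5b one of 0.13 (adjusted p = 0.621). Among the regulators, the cytokine receptor genes Il4ra (-0.67, adjusted p = 0.0566) and Ifngr1 (-0.45, adjusted p = 0.0655) had the smallest p-values. The list medians were 0.08 and -0.09. Aqp5, a water channel of acinar cells, rose (log2 fold change 0.54, adjusted p = 0.0165) and was the only one of 12 salivary epithelium genes called.

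Of 10 antibody receptors and binding proteins, 2 fell. Trim21, the cytosolic receptor for antibody-coated particles, fell by 0.96 (adjusted p = 0.00497) and Fcgr4, the IgG receptor of monocytes and macrophages, fell by 2.12 (adjusted p = 0.0232).

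Markers of other cells moved with the IgM and IgG rows. Of 12 T cell markers, 7 fell, with a median of -2.90 and a summed level of 120 to 515 in WT and 36.6 to 64.5 in DKO. Cd8a was at 0 in all DKO libraries, at least 22.2-fold lower than in WT against a floor of 3 counts over the group (adjusted p = 1.29e-04). Lck fell by 2.17 (adjusted p = 0.00358), Cd3g fell by 3.42 (adjusted p = 0.0104) and Cd4 fell by 3.14 (adjusted p = 0.0075). Of 10 macrophage markers, 4 fell, with Mrc1 at -1.25 (adjusted p = 5.17e-04), Adgre1 at -1.02 (adjusted p = 0.00181), C1qa at -0.76 (adjusted p = 0.0364) and C1qb at -0.74 (adjusted p = 0.0468). Their summed level was 2318 to 3558 in WT and 1597 to 2231 in DKO.

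Lymph nodes lie against the SMG, and 6 of 10 listed genes of lymph node stroma and venules could be tested. None was called, with 3 at an unadjusted p under 0.05. Cxcl13, a chemokine that draws B cells into follicles, had a log2 fold change of -2.48 (adjusted p = 0.286). The defining genes Glycam1 and Chst4 had 1 and 0 counts in all 6 libraries, and the summed level of the list was 44.0 to 192 in WT, highest in WT 1, and 23.0 to 36.9 in DKO. The part of T cells, macrophages or lymph node tissue in the Ighm and IgG levels was not tested.

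Red blood cell genes moved the other way, with 4 of 5 called higher in DKO. Hbb-bs rose by 1.21 (adjusted p = 2.69e-07), Hba-a2 by 1.54 (adjusted p = 4.91e-05), Hba-a1 by 1.21 (adjusted p = 5.19e-05) and Hbb-bt by 1.24 (adjusted p = 2.45e-04) on the log2 scale. The summed level was 863 to 1772 in WT and 2824 to 3167 in DKO, and its bearing on the antibody rows was not tested.

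**Figure D3:**
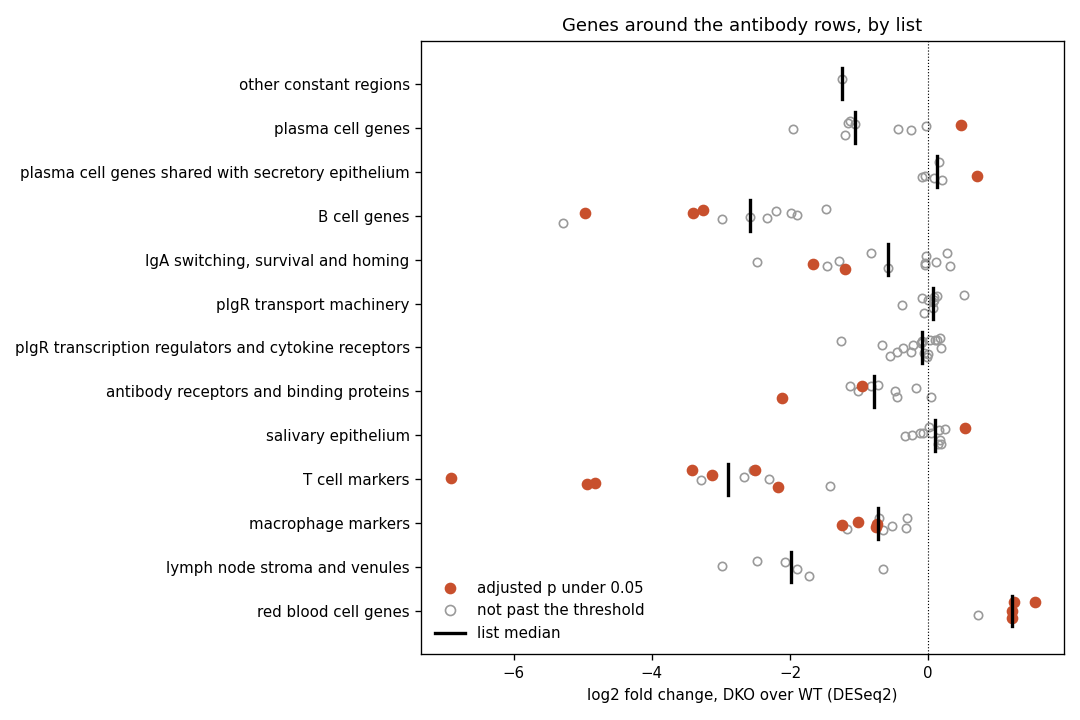
Each point is the DESeq2 log2 fold change of 1 tested gene, DKO over WT, in the 13 lists, with filled points for an adjusted p under 0.05 and a bar for the list median. T cell and B cell lists lie lowest, at medians of -2.90 and -2.58, while the transport and regulator lists of Pigr lie at 0.08 and -0.09.

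The variable segments, which rearrange in front of the constant regions, were summed because single segments share sequence. The 172 Ighv rows summed to 2528, 1042 and 2280 normalized counts in WT and 1641, 985 and 387 in DKO, and the 104 Igkv rows to 3101, 1303 and 2728 in WT and 2243, 1015 and 376 in DKO. In both sums WT 1 was highest, DKO 5 lowest and DKO 1 above WT 4, which is the order of Igkc rather than that of Ighm. The 3 Iglv rows summed to 879, 53.8 and 90.5 in WT and 37.0, 40.8 and 32.3 in DKO. WT 1 stood apart there, since 860 of its counts were those of Iglv1 alone, while its Iglc2 row held 69 counts.

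The rows most like Igkc and Pigr were sought among 11465 and 11464 rows with a mean of at least 50 normalized counts, by Pearson r of log2(normalized count + 1) over the 6 libraries. Rows with a symbol starting with Igh, Igk or Igl were left out beforehand, so heavy chain rows and variable segments were not compared. For Igkc they were Map3k2 (r = 0.991), Pard6g (0.990), Rapgef1 (0.989), Bid (0.989) and Jchain (0.985). For Pigr they were Fem1b (r = 0.992), Tfap2c (0.991), Sik1 (0.990), Usp31 (0.985) and Pi4k2b (0.982). These values describe the shape over 6 libraries, have no test, and were picked as the highest of many rows. Apart from Jchain, which spanned 9.34-fold, the rows like Igkc spanned 1.08-fold to 2.33-fold from the lowest to the highest library, and those like Pigr 1.37-fold to 2.09-fold.

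**Figure D4:**
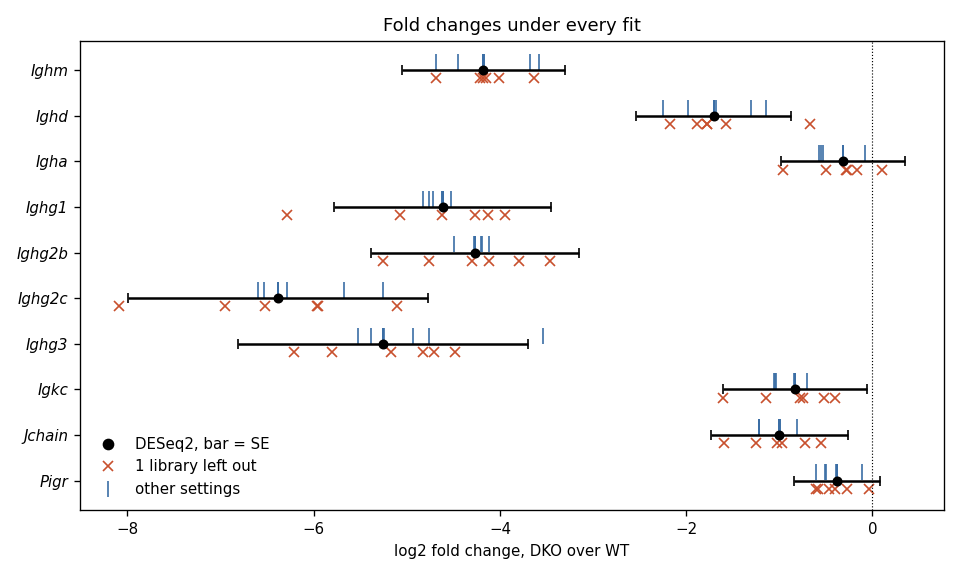
Log2 fold changes of the 10 genes, DKO over WT, in the DESeq2 fit (black point, bar for the SE), in 6 fits without 1 library each (crosses) and under the other settings (ticks). Ighm and the IgG rows stay at or below -3.47 in every fit, and Igha without DKO 5 is the only value above 0.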

How the data were processed

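RNA of 6 SMGs was sequenced from unstranded Nextera XT libraries on a HiSeq2500. The submitters' processing notes name STAR 2.5.2a, DESeq2, edgeR and limma, and the builds GRCm38, mm10 and GRCh38, without roles. The counting annotation is not given in the sources used here. Gene counts by symbol were deposited raw, both unfiltered and filtered, beside a table of normalized signal that the authors made from them, and only the unfiltered counts were analysed. Reads of overlapping genes on opposite strands cannot be separated without strand.

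Rows with at least 10 counts over the 6 libraries were tested with DESeq2 1.42.0 in R 4.3.3 (Wald test, two-sided, median-of-ratios size factors, unshrunken fold changes, default Cook's and independent filters, Benjamini-Hochberg, threshold 0.05). The methods of the study name DESeq2 and the Wald test, while the count minimum, the unshrunken values and the filters were chosen here. The study also asked for a minimum fold change, which was not applied here, so Derl3, Fkbp11, Aqp5, Trim21, C1qa and C1qb, all under 1 in log2 size, are called on the adjusted p-value alone. DESeq2 left 2556 rows without an adjusted p-value. The DESeq2, edgeR and limma-voom fits were tested on simulated counts. Alternatives were edgeR 4.0.16 (quasi-likelihood, TMM), limma-voom (limma 3.58.1), DESeq2 with size factors from TMM or from total counts, with every row of 1 or more counts, with a minimum of 10 counts in 3 libraries, without independent filtering, without Cook's filter or with the replicate number as a block, each library left out, and, added after seeing the data, WT 4 and DKO 5 both left out.

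The members and the gene lists were chosen with earlier results of these data known. Named are the members, the targeted genes, in each list up to 4 genes per direction with the smallest adjusted p-value under 0.05, or the 2 with the smallest unadjusted p where none passed, and the 5 rows most like Igkc and like Pigr. A gene that this rule names is not reported here. Ccl28, Muc19, Smgc, Bpifa2, Dcpp1, Glycam1, Chst4 and the variable segments were named outside this rule, after their values were seen. Levels per kb use the union of annotated exons (GENCODE M21, GRCm38). Shares, ratios and orders between genes depend on this choice of length. Sequences are from GENCODE M21 transcripts and RefSeq promoters (GRCm38.p6). No source says that glands came from separate mice, so p-values measure the spread between these samples. Libraries of a group differed by more than sampling noise (chi-square per degree of freedom 18.3 to 47.6), and each counted as 1 replicate. Intervals cover counting error only.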

Additional observations from a re-analysis of the deposited data

How the results depend on the processing

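Of the 10 genes, 5 were called lower by DESeq2, 0 by edgeR and 0 by limma-voom (6 and 3 at an unadjusted p under 0.05), and 1 to 5 without 1 library, with 1 (Ighm) without WT 1, WT 5, DKO 4 or DKO 5. Of the list genes, 18 were called lower and 7 higher. Lower calls numbered 0 under edgeR and limma-voom, 40 with total counts as size factors, 11 with at least 10 counts in 3 libraries, 8 under the replicate block, and 2 to 37 without 1 library (2 without WT 1, 37 without WT 4, 3 without WT 5, 4 without DKO 4 and 4 without DKO 5). Higher calls numbered 0 under edgeR and limma-voom, 4 with total counts, and 3 to 8 without 1 library (4 without WT 5, 3 without DKO 4 and 4 without DKO 5). Over all rows, 539 were called by DESeq2, 10 by edgeR, 7 by limma-voom, 1469 with total counts, 343 under the replicate block, 149 to 817 without 1 library, and 357 without WT 4 and DKO 5. Total counts as size factors moved the median fold change of all rows by -0.23. The cause of these changes was not tested. Igha ranged from -0.96 to 0.10 on the log2 scale without 1 library and was above 0 without DKO 5, and Myo5b was -0.10 with total counts, both reversed. The Pigr fold change ranged from -0.60 to -0.04 without 1 library and was never called. The difference in IgA share, 36.5 percentage points, ranged from 26.1 to 51.2 without 1 library and kept its direction under every alternative run. Same-numbered libraries of the groups did not deviate together (correlations -0.133, -0.024 and -0.259 for numbers 1, 4 and 5). Libraries of unlike number had correlations from -0.390 to 0.446. With 3 libraries per group such values cannot exclude that the numbers pair them. Under the replicate block 4 of the 10 genes were called. Depth limits Ighg3, Ighd and, in DKO, Ighg1 and Ighg2c, with 0 to 27 counts per DKO library.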
